A study of Mus musculus with 12 samples.

Results

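The liver transcriptome of Lpcat3 knockout mice on control feeding was compared with that of floxed mice on the same feeding, as the genotype difference in the control-fed groups. The group LKO-NC carried 2 floxed Lpcat3 alleles and a cre transgene (LPCAT3flox/flox-cre), and the group FLOX-NC carried the floxed alleles without cre (LPCAT3flox/flox). Both groups were male C57BL/6 mice aged 8 to 10 weeks, and both received the control treatment. The comparison used 5 of the 12 labelled liver samples, 2 of LKO-NC and 3 of FLOX-NC, and the third LKO-NC sample was not used here. The other 6 libraries with a column, 3 of LKO-ALD and 3 of FLOX-ALD, came from mice on the NIAAA model of alcoholic liver injury, with the same genotype labels. The promoter that drives cre and the exons that it removes are not stated in the labels, so the cells that keep the gene are unknown. FLOX-NC mice lack cre, so a difference that comes with the transgene itself cannot be told apart from one that comes with the loss of Lpcat3. The labels do not say that replicates are separate animals, and p-values measure only the spread between samples. Unless another set is named, that spread was estimated over all 11 libraries with a column, the 6 of NIAAA feeding included.

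LPCAT3 is an enzyme of the endoplasmic reticulum that joins polyunsaturated fatty acids, mainly linoleic and arachidonic acid, to lysophospholipids, and it makes the unsaturated phosphatidylcholine of membranes and lipoproteins. In liver it is the main lysophosphatidylcholine acyltransferase, and its gene is a target of LXR, the nuclear receptor that senses oxysterols. Membranes rich in arachidonoyl chains are known to favour the loading of triglyceride onto very low density lipoprotein and the processing of SREBP1c, the transcription factor of fatty acid synthesis.

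Library totals, in units of 1e6 counts, were 42.6 and 49.4 in LKO-NC, against 47.8 to 62.8 in FLOX-NC. LKO-NC replicate 1 stood apart from the other 4 libraries. Mitochondrial genes took 25.3% of its counts, against 15.4% in LKO-NC replicate 2 and 12.1% to 13% in FLOX-NC. Its rank correlation over genes with the FLOX-NC libraries was 0.952 to 0.954, whereas LKO-NC replicate 2 reached 0.969 to 0.971 with FLOX-NC and 0.962 with LKO-NC replicate 1. The 2 knockout libraries were thus less alike than knockout replicate 2 and the floxed libraries. Hepatocyte markers were present at high level in all 5 libraries, as the tissue label says: their summed level was 100135 CPM (TMM-scaled counts per 1e6 counts) in LKO-NC replicate 1 and 156785 CPM in LKO-NC replicate 2, against 142549 to 150785 CPM in FLOX-NC. The comparison was therefore repeated without LKO-NC replicate 1, and for many gene lists the repeat is given beside the main values. In these bulk samples, fewer cells of a type and less RNA per cell cannot be told apart.

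Lpcat3 itself was lower in both knockout libraries, with a change of transcript. The gene (ENSMUSG00000004270, mm10 chr6:124663027-124704418, plus strand) had 29.2 and 37.2 CPM in LKO-NC livers, against 103, 87.1 and 101 CPM in FLOX-NC livers, and the groups did not overlap. The log2 fold change was -1.55 (SE 0.255), with an edgeR quasi-likelihood adjusted p of 0.176 over all genes tested, so the targeted gene did not pass the threshold of 0.05 in the edgeR test, and the DESeq2 adjusted p was 3.41e-05. Without LKO-NC replicate 1 the log2 fold change was -1.39. Most counts of the floxed livers had been given to ENSMUST00000135516, a transcript with 12 exons annotated as retained intron, and not to the coding transcript ENSMUST00000004381 with 13 exons. The retained-intron transcript had 0 and 0 counts in LKO-NC, against 3689, 2760 and 3651 counts in FLOX-NC. At a floor of 3 counts per library its estimated count was at least 1000-fold lower in the knockout, a floor that covers counting error only. The counts assigned to a transcript can differ as widely within a group, since the main Rxra transcript had 7024 and 0 counts in LKO-NC. The coding transcript had 701 and 904 counts in LKO-NC, against 1324, 1014 and 471 counts in FLOX-NC, so this transcript overlapped between the groups.

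The annotated stretch that separates the 2 transcripts is shown because the largest difference at the locus was assigned through it. It is exon 4 of ENSMUST00000135516, from GENCODE M21 on mm10 (chr6:124700007-124700278, plus strand). Lower case marks exons 4 and 5 of the coding transcript, and capitals mark the 140 bases between them (chr6:124700101-124700240), which the coding transcript splices out and which begin with GT and end with AG.
Lpcat3 exons 4 and 5 with the intron: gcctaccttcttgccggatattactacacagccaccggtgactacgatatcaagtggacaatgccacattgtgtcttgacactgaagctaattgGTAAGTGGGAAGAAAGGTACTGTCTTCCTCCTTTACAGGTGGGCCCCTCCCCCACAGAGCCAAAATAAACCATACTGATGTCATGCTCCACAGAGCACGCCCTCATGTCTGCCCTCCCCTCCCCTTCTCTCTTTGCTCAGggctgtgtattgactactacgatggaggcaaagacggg
Reads within this intron are the main feature that tells one transcript from the other, since in this annotation they have the same first exon and the same other internal exons. The share of Lpcat3 counts given to transcripts that start downstream of the first exon was 48.1% and 49.0% in LKO-NC, against 19.3%, 9.99% and 16.9% in FLOX-NC. In level, transcripts from the first exon had 15.2 and 18.97 CPM in LKO-NC, against 83.2, 78.3 and 84.2 CPM in FLOX-NC, and those that start downstream had 14.1 and 18.2 CPM, against 19.9, 8.70 and 17.1 CPM. Only the transcripts from the first exon separated the groups. Among the genes within 1 Mb of Lpcat3, 3 of 50 tested had a higher and 2 a lower level at an unadjusted p under 0.05, and their median log2 fold change was -0.006.

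**Figure D1:**
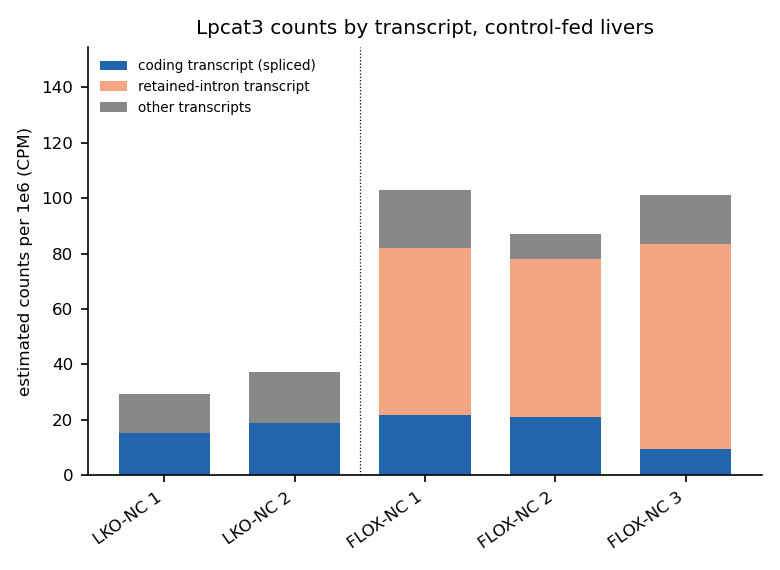
Estimated Lpcat3 counts per 1e6 (vertical axis, linear from 0) in each control-fed library, stacked by annotated transcript, with LKO-NC libraries left of the dotted line and FLOX-NC libraries right of it. The retained-intron transcript had 0 counts in both LKO-NC libraries and made up most of the bar in all 3 FLOX-NC libraries, while the coding transcript overlapped between the groups.

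Across the transcriptome, the edgeR test called 2 of 19014 genes at an adjusted p under 0.05, which is 0.0105% of genes tested, 1 in each direction. Fgf2, which encodes basic fibroblast growth factor, fell in the knockout, and Jade1, a scaffold subunit of the HBO1 histone acetyltransferase complex, rose. At an unadjusted p under 0.05 there were 1240 genes (6.52%), of which 810 were higher (4.26%) and 430 lower (2.26%), and at an unadjusted p under 0.01 there were 266 (1.4%). The libraries of the groups did not overlap for 5510 genes (29%), of which 15.1% of all genes tested were higher and 13.9% lower in LKO-NC. DESeq2 called 60 of 18963 genes (0.316%), 42 higher (0.221%) and 18 lower (0.0949%), limma voom called 0, and edgeR on the 5 control-fed libraries alone called 5 of 17553 (0.0285%), 3 higher (0.0171%) and 2 lower (0.0114%). At an unadjusted p under 0.05, limma voom had 1252 genes, and the control-fed libraries alone gave 11.2% of genes, 6.59% higher and 4.61% lower.

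Fgf2 (ENSMUSG00000037225, mm10 chr3:37348346-37410108, plus strand) had 0.152 and 0.0417 CPM in LKO-NC, from 7 and 2 counts, against 4.67, 5.89 and 7.89 CPM in FLOX-NC, from 285, 285 and 390 counts. Its log2 fold change was -5.97 (SE 0.619, edgeR adjusted p 0.00714), and both knockout libraries lay below all 3 floxed libraries. Jade1 (ENSMUSG00000025764, mm10 chr3:41555731-41616864, plus strand) had 41.8 and 20.9 CPM in LKO-NC, against 5.13, 5.45 and 2.89 CPM in FLOX-NC. Its log2 fold change was 2.80 (SE 0.336, edgeR adjusted p 0.0174). In both genes no leading transcript was shared between the groups. The Fgf2 transcript ENSMUST00000200585 had 0 and 0 counts in LKO-NC, against 269, 270 and 372 counts in FLOX-NC. For Jade1 the longer ENSMUST00000163764 had 1917 and 990 counts in LKO-NC, against 0 in each FLOX-NC library, and the shorter ENSMUST00000170711 had 0 and 0 counts in LKO-NC, against 263, 218 and 86 counts in FLOX-NC. On the FPKM values that the authors deposited, which divide by transcript length, the differences in log2(FPKM + 1) were -0.64 for Fgf2 and 1.33 for Jade1, and limma called neither (adjusted p 0.5099 and 0.311). The added 1 compresses the difference of a gene as low as Fgf2, and on log2(FPKM + 0.1) the differences were -1.60 for Fgf2 and 1.83 for Jade1, again not called (limma adjusted p 0.571 and 0.318). With nothing added, Fgf2 had an FPKM of 0.470 and 0.131 in LKO-NC, against 0.771, 0.996 and 1.28 in FLOX-NC. By ratio this difference was far smaller than in the counts, so the deposited measures disagree on the size of the Fgf2 difference. Nudt6, which overlaps Fgf2 on the opposite strand, had 8.597 and 9.22 CPM in LKO-NC, against 4.75, 5.99 and 8.42 CPM in FLOX-NC, and the strand setting of the counting is not given in the sources used here.

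A switch of the leading transcript between the groups was uncommon over all genes. Of the 19014 genes, 12694 (66.8%) had 1 leading transcript in all 5 libraries and 301 (1.58%) had none in common between the groups. Of the 60 genes called by DESeq2, 29 had the same leading transcript in all 5 libraries and 7 had none in common. Both edgeR calls belong to the 301. With p-values adjusted only over the genes with 1 leading transcript in all 5 libraries, edgeR called 0 genes in the fit of all 11 libraries. Of the 5 genes called by edgeR on the control-fed libraries alone, 3 had no leading transcript in common between the groups. Another 1 had the same leading transcript in all 5 libraries, and 1 was mixed. Atg7, the enzyme that starts the conjugation steps of autophagy, had 8.84 and 10.5 CPM in LKO-NC, against 23.9, 23.7 and 27.7 CPM in FLOX-NC. Its log2 fold change of -1.37 (SE 0.216, edgeR adjusted p 0.176) came with 0 and 0 counts for ENSMUST00000032457 in LKO-NC, against 1443, 1114 and 1356 counts in FLOX-NC. Larp4, an RNA-binding protein that protects poly(A) tails, had 7.21 and 7.19 CPM in LKO-NC, against 47.2, 43.2 and 53.9 CPM in FLOX-NC, and its transcript ENSMUST00000100206 had 0 and 0 counts, against 2846, 2070 and 2421 counts. Larp4 was called by edgeR on the control-fed libraries alone and was named after its values were seen. On NIAAA feeding Larp4 varied widely within each genotype, with 72.5, 12.5 and 19.1 CPM in LKO-ALD, against 47.4, 8.99 and 34.6 CPM in FLOX-ALD. Atg7 had 25.2, 22.4 and 22.5 CPM in LKO-ALD, against 25.7, 25.2 and 18.6 CPM in FLOX-ALD. How much of each difference in gene count comes with the choice of transcript was not tested.

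**Figure D2:**
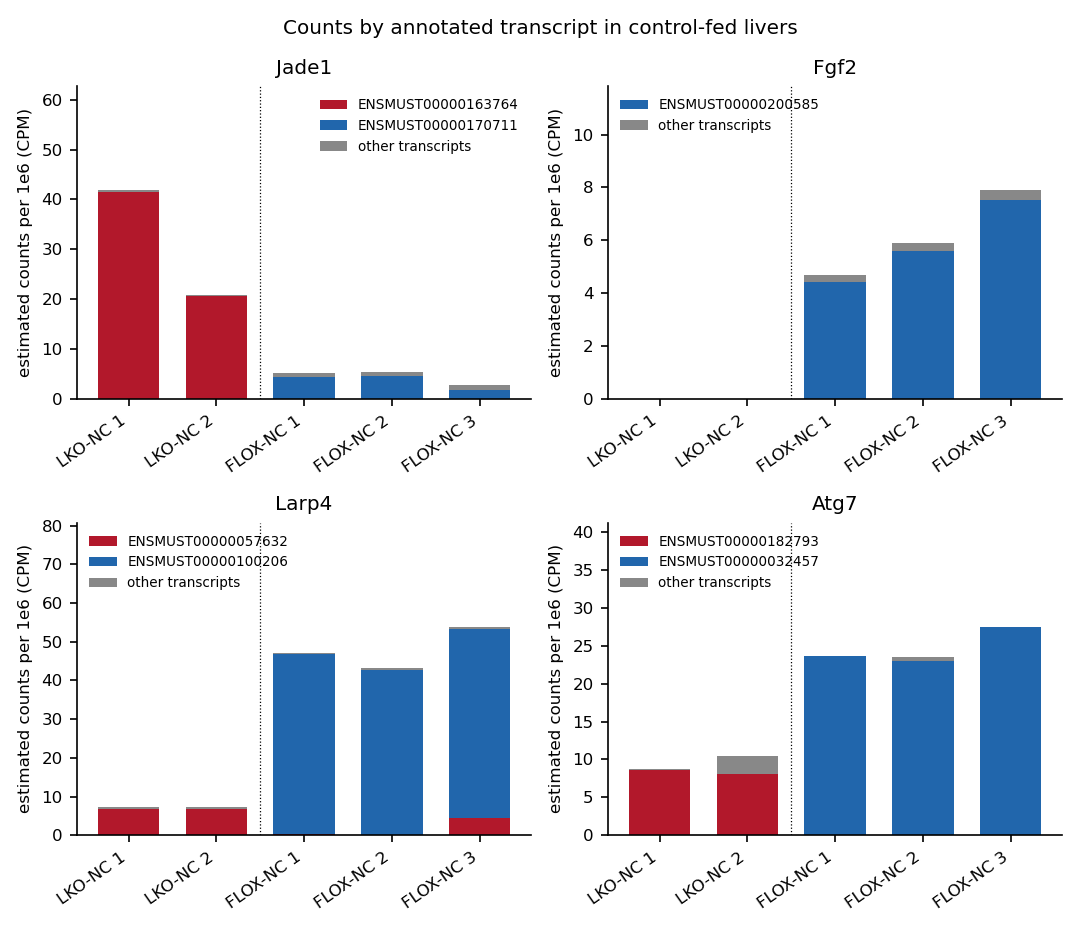
Estimated counts per 1e6 (vertical axes, linear from 0) of Jade1, Fgf2, Larp4 and Atg7 in each control-fed library, stacked by annotated transcript, with LKO-NC left of the dotted line and FLOX-NC right of it. In each gene the transcript that holds most counts in FLOX-NC had 0 counts in both LKO-NC libraries.

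The rule for naming genes gave 15 higher and 11 lower genes besides the lists, with Jade1 among the higher and Fgf2, Atg7 and Lpcat3 among the lower. Other than Fgf2 and Jade1 they were not called by edgeR in the fit of all 11 libraries. On the control-fed libraries alone edgeR also called Tubb2a (adjusted p 0.0301). They had an unadjusted edgeR p under 0.01, a DESeq2 adjusted p under 0.05, and groups that did not overlap. Among the higher genes, Apoa4, an apolipoprotein of triglyceride-rich lipoproteins, had 4070.1 and 2505 CPM in LKO-NC, against 775, 483 and 639.7 CPM in FLOX-NC (log2 fold change 2.38, SE 0.483, edgeR adjusted p 0.425). Gm10680, which lies on the opposite strand within Apoa4, had 66.2 and 28.6 CPM in LKO-NC, against 2.26, 2.79 and 4.43 CPM in FLOX-NC, and was named after its values were seen. The stress gene Ddit4, an inhibitor of mTORC1, had 14.7 and 68.2 CPM in LKO-NC, against 8.39, 3.06 and 5.28 CPM in FLOX-NC, and the upstream stress kinase Map3k6 had 22.1 and 7.13 CPM, against 3.05, 3.61 and 2.31 CPM. The beta-tubulin Tubb2a had 55.8 and 60.2 CPM in LKO-NC, against 15.2, 8.96 and 11.7 CPM in FLOX-NC, and its 2 knockout libraries were close to each other. The 2 knockout libraries were far apart for the neutrophil alarmin subunit S100a8 (12.2 and 0.771 CPM in LKO-NC, against 0.295, 0.06196 and 0.243 CPM in FLOX-NC), the glutathione transferase Gsta1 (33.2 and 5.23 CPM, against 1.95, 0.496 and 0.728 CPM) and the acute phase orosomucoid Orm3 (34.2 and 2.86 CPM, against 1.69, 1.49 and 1.25 CPM).

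Other higher genes had the same split between the knockout libraries. The interferon-induced mitochondrial protein Ifi27l2b had 29.99 and 12.5 CPM in LKO-NC, against 3.75, 3.8003 and 3.01 CPM in FLOX-NC. The calcium-binding S100a11 had 34.8 and 9.09 CPM in LKO-NC, against 4.29, 3.35 and 3.298 CPM in FLOX-NC, and the beta-galactoside lectin Lgals3 had 24.2 and 4.46 CPM, against 3.74, 3.22 and 2.55 CPM. In all 3 genes LKO-NC replicate 1 held the highest value. Mtmr11, Ccdc120 and the cytokine Clcf1 complete the set, with log2 fold changes of 2.49, 2.59 and 2.14. Zc3h11a, at 2.84, is uncertain because 2 overlapping gene identifiers share the symbol. The lysosomal tetraspanin Cd63, called by DESeq2 and named after its values were seen, had 28.2 and 14.9 CPM in LKO-NC, against 6.49, 4.98 and 3.22 CPM in FLOX-NC (edgeR adjusted p 0.176).

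For most of the lower genes the knockout libraries lay close together. The adhesion receptor Adgrf1 had 0.628 and 0.688 CPM in LKO-NC, against 3.69, 3.76 and 8.68 CPM in FLOX-NC (log2 fold change -3.03, SE 0.511, edgeR adjusted p 0.176). Nrep had 7.38 and 7.01 CPM in LKO-NC, against 27.99, 21.9 and 71.6 CPM in FLOX-NC. Dact1, an inhibitor of Wnt signalling, had 0.953 and 0.396 CPM in LKO-NC, against 3.31, 2.56 and 3.197 CPM in FLOX-NC. The purine synthesis enzyme Ppat had 7.103 and 9.53 CPM in LKO-NC, against 16.7, 14.6 and 13.7 CPM in FLOX-NC, and Ttc39b, which promotes the turnover of LXR, had 14.5 and 16.1 CPM, against 31.6, 29.6 and 25.5 CPM. The zinc finger genes Zfp141 and Zfp870 had log2 fold changes of -1.24 and -1.05. Cpne1, whose groups shared no leading transcript, had 0.152 and 0.521 CPM in LKO-NC, against 22.7, 23.9 and 4.15 CPM in FLOX-NC.

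**Figure D3:**
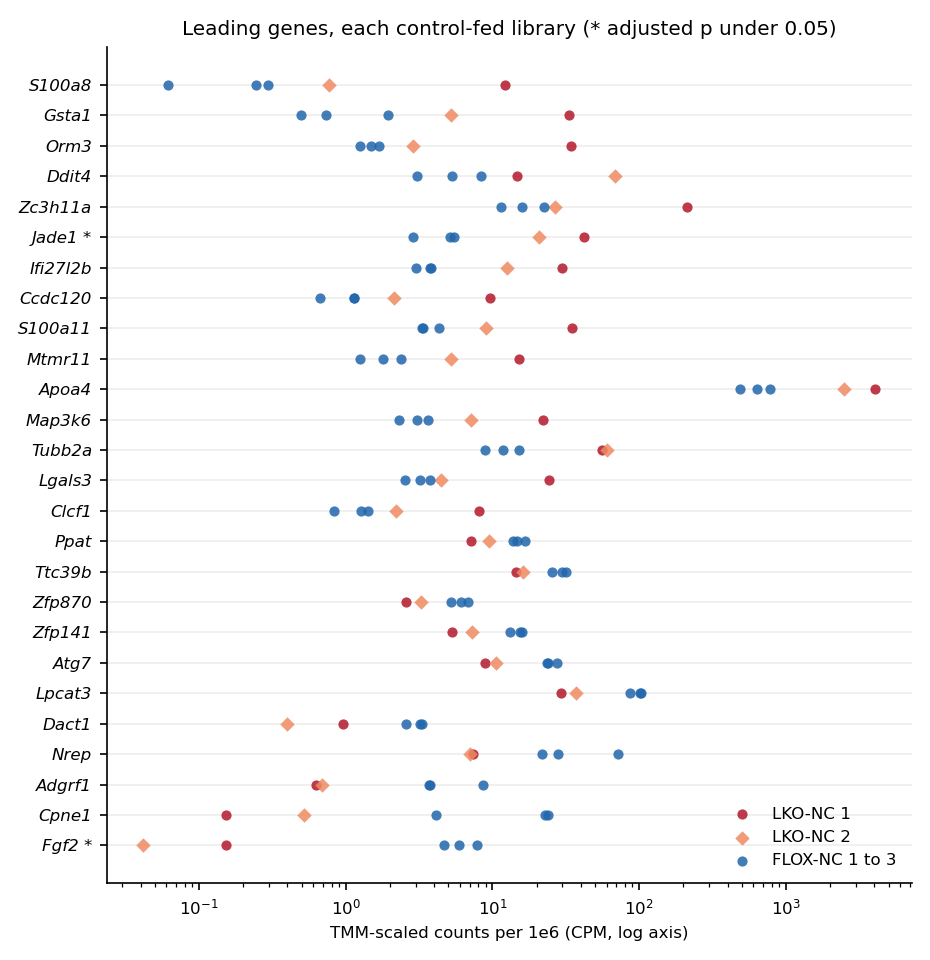
TMM-scaled counts per 1e6 (horizontal log axis) of the 26 genes named by size of difference, 1 row per gene, in LKO-NC replicate 1 (dark red circles), LKO-NC replicate 2 (orange diamonds) and the 3 FLOX-NC libraries (blue). LKO-NC replicate 1 lies further from FLOX-NC than replicate 2 in 21 of the 26 genes. Only the genes with an asterisk passed the edgeR adjusted threshold in the fit of all 11 libraries.

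Repeating the comparison without LKO-NC replicate 1 made most differences of the leading genes smaller. Of the 266 genes with an unadjusted p under 0.01, 265 kept their sign in the repeat, against 14317 of 19010 over all genes. The 266 were chosen with replicate 2 and the FLOX-NC libraries that the repeat reuses, so this agreement is partly built in. The median absolute log2 fold change of the 266 was 1.13 in the repeat, against 1.67 with both knockout libraries. LKO-NC replicate 1 lay further from FLOX-NC than replicate 2 in 199 of these 266 genes. All 26 leading genes kept their sign. Their selection largely fixed this, since both knockout libraries had to lie beyond all floxed libraries. Of the 26, those whose log2 fold change shrank most were S100a8 (1.92 in the repeat, against 4.98 with both libraries), Orm3 (0.95 against 3.64), Zc3h11a (0.67 against 2.84) and Gsta1 (2.30 against 4.17), whereas Tubb2a (2.33 against 2.28), Adgrf1 (-2.97 against -3.03) and Lpcat3 (-1.39 against -1.55) moved little. Over all genes, 490 of 20347 (2.41%) had an unadjusted p under 0.05 in the repeat, 1.08% higher and 1.33% lower. In the repeat LKO-NC is 1 library, assumed to vary like the other groups. With LKO-NC replicate 2 left out in its place, edgeR called 21 genes, and with any 1 FLOX-NC library left out it called Fgf2 alone, at an adjusted p of 0.0190 to 0.0352.

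**Figure D4:**
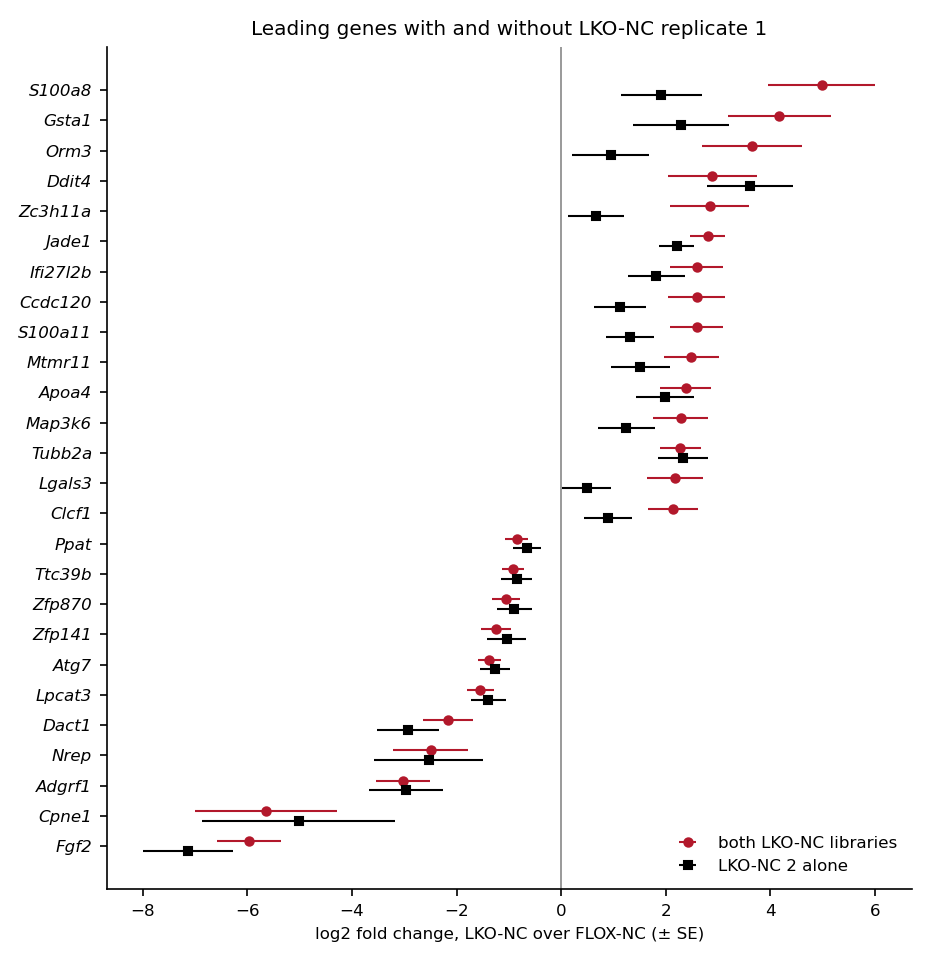
Log2 fold change of LKO-NC over FLOX-NC with its standard error (horizontal axis) for the 26 leading genes, with both LKO-NC libraries (red circles) and with LKO-NC replicate 2 alone (black squares). No gene changes sign, which the selection of genes with non-overlapping groups largely fixed. The higher genes move towards 0 more often than the lower genes.

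The repeat called 5 genes (0.0246%), each lower in the knockout. These were Fgf2, Ipmk, Rxra, Mief1 and Slc10a3, and 4 of them were not called with both knockout libraries. Rxra, the obligate partner of LXR and PPARA, had 153 and 13.8 CPM in LKO-NC, against 226, 193 and 171 CPM in FLOX-NC, so that replicate 1 lay just below the floxed libraries and replicate 2 far below them. Its log2 fold change in the repeat was -3.84 (edgeR adjusted p 0.0152). The main Rxra transcript, ENSMUST00000077257, had 7024 and 0 counts in LKO-NC, against 13671, 9333 and 8419 counts in FLOX-NC. Ipmk, an inositol polyphosphate kinase, had 32.1 and 3.57 CPM in LKO-NC, against 54.03, 53.6 and 45.4 CPM in FLOX-NC, and its transcript ENSMUST00000079252 had 1475 and 0 counts, against 3253, 2570 and 2219 counts. Mief1, a regulator of mitochondrial fission, had 14.6 and 3.54 CPM in LKO-NC, against 26.02, 25.2 and 24.9 CPM in FLOX-NC. Slc10a3 had 0 counts in LKO-NC replicate 2, at least 31.3-fold lower than the FLOX-NC mean at a floor of 3 counts, which covers counting error only. For Fgf2 the ratio of LKO-NC replicate 2 to the FLOX-NC mean was 0.00678, with an exact Poisson 95% interval of 0.000821 to 0.0245 for its 2 counts, which covers counting error only. Jade1 was no longer called in the repeat (log2 fold change 2.21, edgeR adjusted p 0.08801).

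Gene lists were read by their counts and medians. No list had a member called by edgeR with both knockout libraries in the fit of all 11 libraries. The median log2 fold change of all genes tested was 0.00 with both knockout libraries and -0.02 without LKO-NC replicate 1, and the shares of 4.26% higher and 2.26% lower at an unadjusted p under 0.05 are the background for the counts below.

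Within the pathway of the deleted gene, the other lysophospholipid acyltransferases were mostly level. Of 18 tested members, 2 had a higher and 1, Lpcat3, a lower level at an unadjusted p under 0.05, and the median was 0.06. Lpcat2, an acyltransferase of inflammatory cells, had 3.72 and 3.002 CPM in LKO-NC, against 1.34, 2.31 and 1.27 CPM in FLOX-NC, and Mboat1, which prefers lysophosphatidylserine and lysophosphatidylethanolamine, had 0.715 and 1.25 CPM, against 0.246, 0.289 and 0.445 CPM. Mboat7, which acylates lysophosphatidylinositol, had 15.4 and 20.2 CPM in LKO-NC, against 26.5, 23.7 and 19.5 CPM in FLOX-NC. Of the 17 genes of phosphatidylcholine and phosphatidylethanolamine synthesis, the phosphatidate phosphatase Lpin3 was higher (7.97 and 4.003 CPM in LKO-NC, against 2.61, 2.499 and 2.53 CPM in FLOX-NC) and the ethanolamine phosphotransferase Selenoi lower (19.6 and 23.2 CPM, against 27.6, 31.6 and 30.3 CPM) at an unadjusted p under 0.05. The choline kinase Chka had 109 and 103 CPM in LKO-NC, against 34.1, 49.8 and 61.9 CPM in FLOX-NC, groups that did not overlap, with an unadjusted p of 0.0995. Among genes of polyunsaturated fatty acid synthesis, the elongase Elovl5 had 655 and 1014 CPM in LKO-NC, against 539.6, 357 and 598 CPM in FLOX-NC (unadjusted p 0.105), and the desaturase Fads1 overlapped at 318 and 580.2 CPM, against 542, 373 and 529.9 CPM.

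The LXR target list had a median of -0.11 over 18 tested genes. The sterol transporter Abcg1 had 7.36 and 7.19 CPM in LKO-NC, against 3.57, 5.23 and 3.12 CPM in FLOX-NC (unadjusted p 0.0265), and Abca1 had 64.99 and 83.5 CPM, against 109.6, 113 and 116 CPM (unadjusted p 0.115), in the opposite direction. Srebf1, which encodes SREBP1, overlapped between the groups at 87.5 and 55.6 CPM in LKO-NC, against 95.3, 76.96 and 78.5 CPM in FLOX-NC. Of 19 genes of fatty acid synthesis, 4 were lower at an unadjusted p under 0.05 and none higher, against 1 lower in the repeat, and the median was -0.33, or -0.09 in the repeat. The 4 were the rate-limiting carboxylase Acaca (60.3 and 67.3 CPM in LKO-NC, against 133, 85.1 and 150.4 CPM in FLOX-NC), the elongase Elovl6 (107 and 164 CPM, against 354, 158 and 535 CPM), the glycolytic kinase Pklr (103 and 176 CPM, against 366, 233 and 452 CPM) and the carboxylase activator Mid1ip1 (6.24 and 8.99 CPM, against 21.7, 17.3 and 18.5 CPM). The FLOX-NC libraries themselves varied in this pathway, since fatty acid synthase, Fasn, had 169.8 and 333 CPM in LKO-NC, against 377, 173 and 679.6 CPM in FLOX-NC. Among the 28 apolipoprotein and lipoprotein assembly genes, Apoa4 was the only member with an unadjusted p under 0.05. Mttp, which loads triglyceride onto apolipoprotein B, had 164 and 194 CPM in LKO-NC, against 256, 219 and 233 CPM in FLOX-NC, and Apob itself overlapped.

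Of 33 tested PPARA targets and fatty acid oxidation genes, 6 were higher at an unadjusted p under 0.05 and none lower, with a median of 0.00. They were the fatty acid transporter Cd36 (55.8 and 40.3 CPM in LKO-NC, against 11.1, 7.62 and 11.7 CPM in FLOX-NC), the omega-hydroxylases Cyp4a10 (326 and 694 CPM, against 215, 204 and 263 CPM) and Cyp4a14 (210.0 and 834 CPM, against 169, 114 and 118 CPM), the pyruvate dehydrogenase kinase Pdk4 (14.1 and 36.8 CPM, against 8.65, 7.89 and 7.89 CPM), the coactivator Ppargc1a (22.8 and 34.7 CPM, against 13.8, 16.2 and 20.5 CPM) and the thioesterase Acot2 (27.2 and 12.9 CPM, against 4.13, 4.96 and 5.32 CPM). For Cyp4a10, Cyp4a14, Pdk4 and Ppargc1a the higher of the knockout libraries was replicate 2. Without LKO-NC replicate 1, 5 members were higher at an unadjusted p under 0.05 and the median was 0.22. A pair of core oxidation enzymes lay near 0, with log2 fold changes of 0.01 for Cpt1a and -0.03 for Acadm. Cd36 was 1 of the 5 genes called by edgeR on the control-fed libraries alone.

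Glucose, glucocorticoid-responsive and clock genes varied between the knockout libraries. Of 21 gluconeogenesis and glucose genes, 5 were lower and 1 higher at an unadjusted p under 0.05, and in the repeat 0 were lower and 2 higher, at a median of -0.20 with both knockout libraries and -0.14 in the repeat. Glycogen phosphorylase, Pygl, had 92.1 and 182 CPM in LKO-NC, against 324, 282 and 349.7 CPM in FLOX-NC, and glycogen synthase, Gys2, had 131 and 142 CPM, against 318, 234 and 202 CPM. Pck1 overlapped at 3454 and 4562 CPM in LKO-NC, against 3765, 3682 and 2797 CPM in FLOX-NC, and the glucose-releasing phosphatase gene G6pc had 61.5 and 247 CPM, against 291, 364 and 259.8 CPM, with replicate 1 far below the rest. Of 15 glucocorticoid-responsive genes, 5 were higher at an unadjusted p under 0.05, or 3 in the repeat, and the median of the list was 0.46, or 0.82 in the repeat. The metallothionein Mt1, a zinc-binding protein, had 2795 and 1564 CPM in LKO-NC, against 285, 463 and 85.2 CPM in FLOX-NC, and its neighbour Mt2 had 1399 and 701 CPM, against 95.3, 196 and 18.3 CPM. The cell cycle inhibitor Cdkn1a had 18.99 and 49.8 CPM in LKO-NC, against 0.951, 2.87 and 0.364 CPM in FLOX-NC, with no leading transcript shared between the groups. Of 20 clock genes, 4 were lower and 1 higher at an unadjusted p under 0.05, and in the repeat 6 were lower and 2 higher, at a median of -0.25, or -0.65 in the repeat. Nr1d1, the repressor that closes a loop of the clock, had 30.97 and 10.1 CPM in LKO-NC, against 46.1, 39.1 and 45.3 CPM in FLOX-NC, and its target Arntl had 3.79 and 18.3 CPM, against 2.704, 3.57 and 3.32 CPM. The output gene Dbp had 78.8 and 8.99 CPM in LKO-NC, against 122, 86.8 and 107 CPM in FLOX-NC, so replicate 2 was the one that stood apart. The hour of sampling is not given in the labels, and its part in these values was not tested.

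NF-kB and inflammatory genes lay higher mainly in LKO-NC replicate 1, whereas many acute phase genes lay higher in both knockout libraries. Of 24 tested NF-kB and inflammatory genes, 6 were higher at an unadjusted p under 0.05 and none lower, with a median of 1.11. Without LKO-NC replicate 1 the median was 0.22 and 2 were higher at that threshold. Nfkb2, a subunit of the non-canonical NF-kB dimer, had 19.6 and 11.3 CPM in LKO-NC, against 6.62, 6.71 and 7.57 CPM in FLOX-NC. Its partner Relb had 7.15 and 3.82 CPM in LKO-NC, against 1.64, 1.84 and 1.23 CPM in FLOX-NC. For both genes each knockout library lay above all floxed libraries. The chemokine Cxcl1 had 332 and 137 CPM in LKO-NC, against 79.3, 26.02 and 16.1 CPM in FLOX-NC (unadjusted p 0.08405), and the adhesion molecule Icam1 had 54.1 and 20.3 CPM, against 16.99, 19.5 and 9.51 CPM. Of 27 acute phase genes, 5 were higher and 1 lower at an unadjusted p under 0.05, and 15 had groups that did not overlap with LKO-NC higher, beside 15.1% of all genes. The median was 0.65, or 0.46 in the repeat, where 1 was higher and 0 lower at an unadjusted p under 0.05 and 24 had a positive log2 fold change. Serum amyloid Saa2 had 967 and 672 CPM in LKO-NC, against 115, 74.9 and 36.2 CPM in FLOX-NC, and lipocalin Lcn2 had 683 and 207 CPM, against 46.3, 41.1 and 11.5 CPM. Serpina3k, a serine protease inhibitor, was lower at 2564 and 5833 CPM in LKO-NC, against 9669, 9394 and 9521 CPM in FLOX-NC. FLOX-NC replicate 3 was the lowest library for Saa2, Lcn2, Mt1, Mt2 and Cxcl1, and none of these genes was called. The SE of the Saa2 log2 fold change was 1.69 in the fit of all 11 libraries. On the control-fed libraries alone it was 0.450 (edgeR adjusted p 0.0712).

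The promoter of Orm3 is shown because it carries a match to the C/EBP motif. RefSeq windows on GRCm38.p6 run from 250 bases before to 50 after an annotated start, and 21 of 27 acute phase genes had one. The motif TTGCNNAA, searched on both strands, was held by 12 of these 21 (57.1%), against 10.8% of the 12380 tested genes with a window. The 12 include paralogs of the Saa and Orm families, which are not independent, and the difference in share was not tested. A match is a description of letters and not of binding. The window (chr4:63355908-63356207, plus strand) is printed with the motif in capitals.
Orm3 promoter: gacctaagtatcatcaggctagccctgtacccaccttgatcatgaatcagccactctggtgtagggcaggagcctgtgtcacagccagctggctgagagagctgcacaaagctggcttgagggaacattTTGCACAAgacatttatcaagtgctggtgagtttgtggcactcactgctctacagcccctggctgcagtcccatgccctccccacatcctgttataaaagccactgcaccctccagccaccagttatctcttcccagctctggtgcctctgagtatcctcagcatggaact
The motif begins 121 bases before the start of Orm3.

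Immune cell markers followed the same library. Of 10 tested neutrophil markers, 8 were higher at an unadjusted p under 0.05, with a median of 3.56. Only 4 of these 10 had a mean above 1 CPM, and 3 had groups that did not overlap with LKO-NC higher, beside 15.1% of all genes. Without LKO-NC replicate 1 the median was -0.38, or -0.08 with 4 members at 0 counts set to a floor of 3 counts, and 1 marker was higher at an unadjusted p under 0.05. The summed level of the tested neutrophil markers was 743 and 213 CPM in LKO-NC, against 15.4 to 53.0 CPM in FLOX-NC, and most of it was Lcn2, which hepatocytes also make. S100a9, the partner of S100a8, had 20.3 and 0.897 CPM in LKO-NC, against 1.44, 0.537 and 0.465 CPM in FLOX-NC, and the granule gene Camp had 2.01 and 0 CPM, against 0.0819, 0 and 0 CPM. Only LKO-NC replicate 1 stood above the floxed libraries for both genes. Of 14 dendritic cell and class II genes, 8 were higher at an unadjusted p under 0.05, or 1 in the repeat, with a median of 1.17, or 0.43 in the repeat. H2-Eb1, a class II chain, had 34.5 and 18.8 CPM in LKO-NC, against 10.2, 9.89 and 9.89 CPM in FLOX-NC (edgeR adjusted p 0.425, DESeq2 adjusted p 0.0103). Of 14 recruited monocyte and macrophage markers, 5 were higher at an unadjusted p under 0.05, or 1 in the repeat, at a median of 1.33, or 0.42 in the repeat. The chemokine receptor Ccr2, which draws monocytes out of the marrow, had 10.2 and 2.63 CPM in LKO-NC, against 2.03, 2.19 and 1.19 CPM in FLOX-NC. The receptor Cx3cr1 had 2.38 and 2.27 CPM in LKO-NC, against 0.574, 0.764 and 0.587 CPM in FLOX-NC, and its knockout libraries were alike. Kupffer cell markers had a median of 0.66, or 0.21 in the repeat, and Clec4f had 136 and 78.3 CPM in LKO-NC, against 73.1, 78.01 and 51.9 CPM in FLOX-NC. LKO-NC replicate 1 was also the library with the highest mitochondrial share and the lowest hepatocyte sum, and the part of these in the marker levels was not tested.

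Collagen genes led the extracellular matrix list, which had more positive than negative members with and without LKO-NC replicate 1. Of 26 tested members, 10 were higher at an unadjusted p under 0.05 and none lower, 24 had a positive log2 fold change, and 16 had groups that did not overlap with LKO-NC higher, beside 15.1% of all genes. The median was 0.85, and 0.76 without LKO-NC replicate 1, with 24 members positive in the repeat as well, of which 2 had an unadjusted p under 0.05. The fibrillar collagen gene Col1a1 had 20.7 and 13.6 CPM in LKO-NC, against 4.90003, 7.27 and 3.89 CPM in FLOX-NC (log2 fold change 1.68, SE 0.419, edgeR adjusted p 0.607). Its partner chain Col1a2 had 21.1 and 18.1 CPM in LKO-NC, against 5.67, 9.34 and 6.35 CPM in FLOX-NC, and the fibrillar Col3a1 had 59.9 and 38.3 CPM, against 18.2, 27.3 and 16.6 CPM. The basement membrane collagen gene Col4a1 had 39.1 and 23.8 CPM in LKO-NC, against 13.6, 14.3 and 12.2 CPM in FLOX-NC, and Col4a2 had 14.8 and 13.4 CPM, against 8.34, 10.5 and 7.53 CPM. In all 5 of these collagen genes LKO-NC replicate 1 was the highest library and replicate 2 lay above every floxed library. The summed level of the whole list overlapped between the groups, at 1509.7 and 1766 CPM in LKO-NC, against 1484 to 1739 CPM in FLOX-NC. Most of that sum came from fibronectin, Fn1 (729 and 989 CPM in LKO-NC, against 1106, 939 and 849 CPM in FLOX-NC), and from Col18a1 (475 and 499 CPM, against 484, 494 and 481 CPM). The membrane-bound collagenase Mmp14 had 24.2 and 23.4 CPM in LKO-NC, against 15.6, 13.5 and 11.5 CPM in FLOX-NC. Of 14 stellate cell markers, 4 were higher at an unadjusted p under 0.05, or 1 in the repeat, 3 of the 4 being the fibrillar collagens, and the retinol esterase Lrat, a quiescent stellate cell marker, overlapped at 12.02 and 11.2 CPM in LKO-NC, against 8.24, 9.79 and 14.6 CPM in FLOX-NC. The summed level of stellate cell markers was 256 and 201 CPM in LKO-NC, against 109 to 159 CPM in FLOX-NC. Sinusoidal endothelial markers had a median of 0.23, or 0.51 in the repeat, and the junction protein Pecam1 had 15.2 and 16.6 CPM in LKO-NC, against 9.51, 7.79 and 8.15 CPM in FLOX-NC.

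Male-biased liver genes were lower in both knockout libraries. Of 23 tested members, 22 had a negative log2 fold change, 16 had groups that did not overlap with LKO-NC lower, beside 13.9% of all genes, and 5 had an unadjusted p under 0.05. The median was -1.23, and -0.68 without LKO-NC replicate 1, where 0 had an unadjusted p under 0.05. Their summed level was 9507 CPM in LKO-NC replicate 1 and 29284 CPM in LKO-NC replicate 2, against 40756 to 54575 CPM in FLOX-NC. The protease inhibitor Serpina1e had 522 and 1275 CPM in LKO-NC, against 6850.4, 8927 and 4949 CPM in FLOX-NC (log2 fold change -2.94, SE 0.985, edgeR adjusted p 0.7396, DESeq2 adjusted p 0.0337). The selenium-binding protein Selenbp2 had 60.7 and 165 CPM in LKO-NC, against 679, 994 and 1325 CPM in FLOX-NC, and the oxysterol hydroxylase Cyp7b1 had 7.95 and 44.2 CPM, against 94.8, 146 and 97.5 CPM. The steroid dehydrogenase Hsd3b5 had 0.346 and 19.6 CPM in LKO-NC, against 97.9, 91.8 and 149.7 CPM in FLOX-NC. The major urinary proteins are near-identical paralogs and uncertain, and the growth hormone receptor Ghr had 138 and 227 CPM in LKO-NC, against 338, 362 and 319 CPM in FLOX-NC (unadjusted p 0.01001). Female-biased liver genes, 20 tested, had 15 members with a positive and 2 with a negative log2 fold change, and 11 with a positive one in the repeat. Only 9 of these 20 genes had a mean above 1 CPM. The median was 0.75, or 0.41 with 5 members without counts in a group set to a floor of 3 counts. The summed level was 392 and 989 CPM in LKO-NC, against 210 to 292 CPM in FLOX-NC, with replicate 2 the highest. The 5 libraries all had the sex-linked transcripts of males. FLOX-ALD replicate 1, with Xist and without Y-linked transcripts, was in the fit that gave these p-values. For Serpina1e the SE was 0.985 in that fit and 0.468 on the control-fed libraries alone. The part of FLOX-ALD replicate 1 in this was not tested.

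Other hepatocyte programmes had smaller medians, as did the hepatocyte markers themselves, at -0.23, or 0.08 in the repeat. Of 40 tested coagulation and complement genes, 36 had a negative log2 fold change and 16 had groups that did not overlap with LKO-NC lower, beside 13.9% of all genes, at a median of -0.27, or -0.11 in the repeat. The terminal complement component C8b had 103 and 170.0 CPM in LKO-NC, against 309, 331 and 253 CPM in FLOX-NC. Of 33 conjugating enzymes, 6 were lower and 1 higher at an unadjusted p under 0.05, and in the repeat 1 was lower and 2 higher, at a median of -0.34, or -0.16 in the repeat. Among the 6 were the glutathione transferase Gstp1 (287 and 407 CPM in LKO-NC, against 1025, 1002 and 606 CPM in FLOX-NC) and the glucuronosyltransferase Ugt2a3 (68.97 and 138 CPM, against 207, 183 and 175 CPM). Of 19 hepatocyte transcription factors, 17 had a negative log2 fold change, and Cebpa had 130.2 and 147 CPM in LKO-NC, against 235, 232 and 234 CPM in FLOX-NC, whereas Cebpb had 73.3 and 74.3 CPM, against 56.8, 45.4 and 37.3 CPM. All 13 mitochondrially encoded protein genes had a positive log2 fold change, at a median of 0.66. In the repeat, without the library of the highest mitochondrial share, the median was 0.35 and 12 were positive. The cytochrome oxidase gene mt-Co3 had 786 and 1439.5 CPM in LKO-NC, against 311, 356 and 206 CPM in FLOX-NC, with replicate 2 the higher of the knockout libraries (DESeq2 adjusted p 0.000249). Nuclear-encoded respiratory chain genes had a median of -0.21, or 0.08 in the repeat, and 0 of 43 had an unadjusted p under 0.05 in either direction.

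Most immediate early genes lay higher in the knockout libraries, and 21 of the 26 had a positive log2 fold change in the repeat. Of 26 tested immediate early genes, 25 had a positive log2 fold change, 13 had groups that did not overlap with LKO-NC higher, beside 15.1% of all genes, and 5 had an unadjusted p under 0.05, or 0 in the repeat, at a median of 0.73, or 0.60 in the repeat. The AP-1 subunit gene Junb had 66.98 and 44.1 CPM in LKO-NC, against 27.2, 18.8 and 15.7 CPM in FLOX-NC, and the stress factor Atf3 had 11.7 and 2.63 CPM, against 1.38, 1.36 and 1.23 CPM. The zinc finger factor Klf6 had 59.9 and 19.5 CPM in LKO-NC, against 9.67, 9.03 and 12.7 CPM in FLOX-NC. Of 20 targets of the oxidative stress factor NRF2, 3 were higher at an unadjusted p under 0.05, or 1 in the repeat, among them the quinone reductase Nqo1 (6.13 and 4.504 CPM in LKO-NC, against 2.43, 3.35 and 2.21 CPM in FLOX-NC) and the sulfiredoxin Srxn1 (66.05 and 19.3 CPM, against 15.6, 16.3 and 17.97 CPM). Endoplasmic reticulum stress genes had a median of -0.28, or 0.15 in the repeat, and Atf3 was the only 1 of 26 with an unadjusted p under 0.05. Interferon-stimulated genes had 1 of 37 in each direction at that threshold, the higher being Mx2 and the lower Bst2, and alcohol metabolism genes had 0 of 14.

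Several groups had few or no members below an unadjusted p of 0.05. Cytosolic ribosomal protein genes had a median of -0.04 and 0 of 54 with an unadjusted p under 0.05, and proteasome subunits likewise had 0 of 31 at a median of -0.11. In the repeat these medians were 0.12 and 0.15. Of the ribosomal genes, 21 had a positive log2 fold change with both knockout libraries and 50 in the repeat, and of the proteasome genes 11 and 23. The list of NAD synthesis and salvage genes had 0 of 22 at an unadjusted edgeR p under 0.05. DESeq2 called 1 member of that list, the transhydrogenase gene Nnt (DESeq2 adjusted p 1.63e-05). It had 33.0 CPM in LKO-NC replicate 1 and 0 CPM in the other control-fed libraries. On NIAAA feeding it also varied within both genotypes, with 0, 0 and 7.03 CPM in LKO-ALD, against 57.3, 8.04 and 0 CPM in FLOX-ALD. Nampt, the salvage enzyme of NAD synthesis that the series also asks about, had 68.6 and 80.1 CPM in LKO-NC, against 105, 78.9 and 120.1 CPM in FLOX-NC (log2 fold change -0.45, SE 0.293, unadjusted p 0.153), and the groups overlapped. Cholesterol synthesis genes had a median of 0.29, or 0.64 in the repeat with 21 of 26 positive, and of these Insig2 alone, which retains SREBP in the endoplasmic reticulum, had an unadjusted p under 0.05, with 108 and 275 CPM in LKO-NC, against 87.2, 110.2 and 73.9 CPM in FLOX-NC. Bile acid genes had a median of -0.18, or 0.02 in the repeat, with Slco1a4, an organic anion transporter, at 62.5 and 93.9 CPM in LKO-NC, against 22.4, 20.1 and 28.2 CPM in FLOX-NC.

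**Figure D5:**
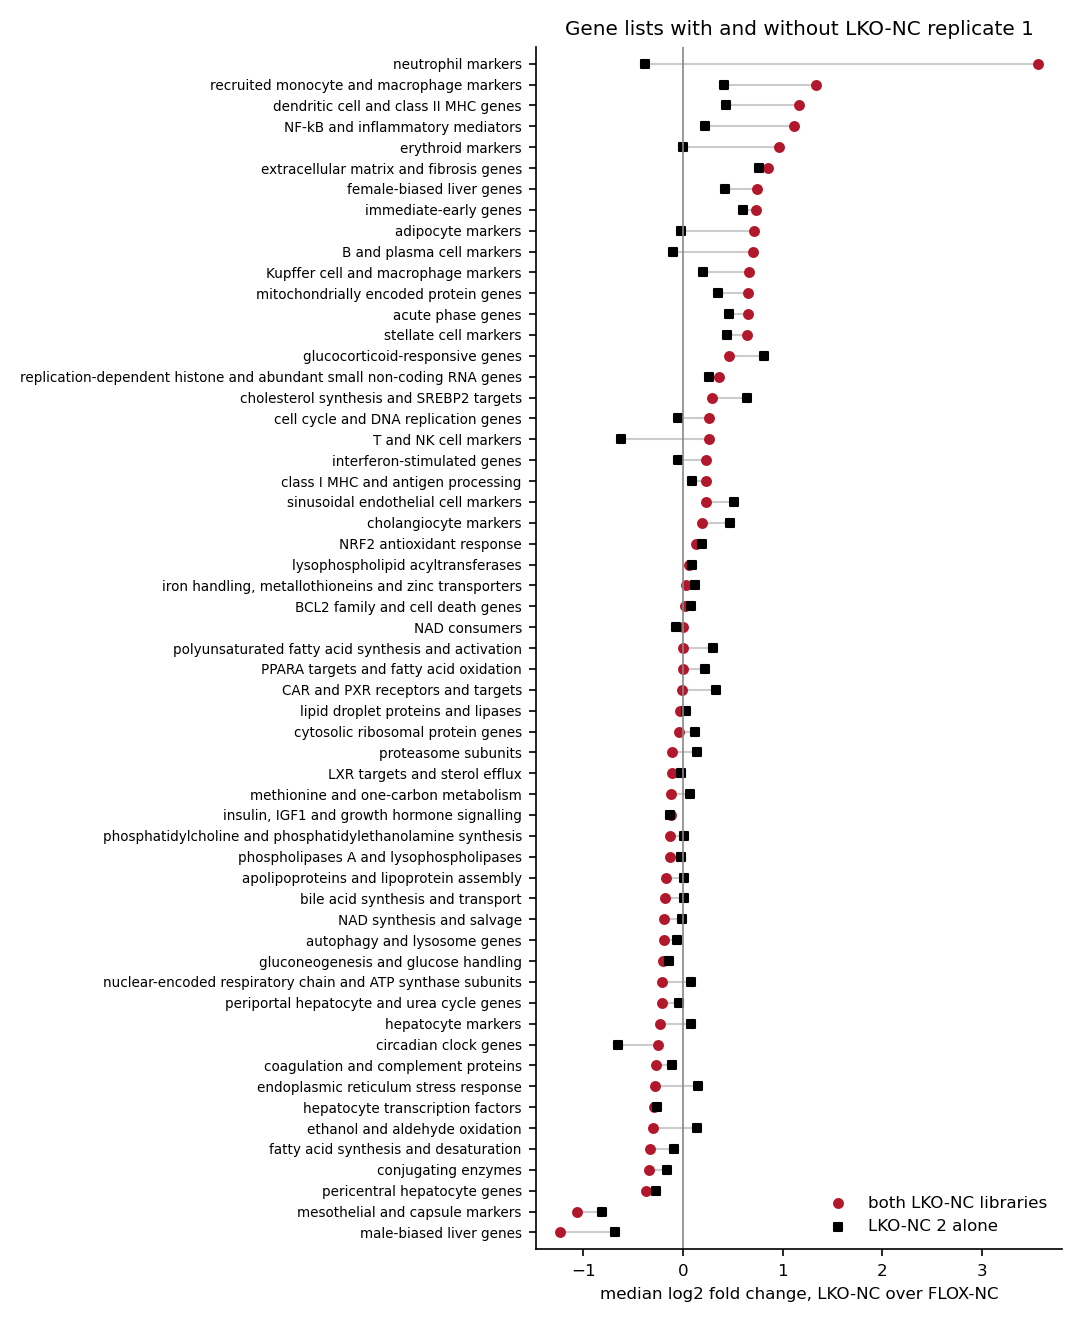
Median log2 fold change of LKO-NC over FLOX-NC (horizontal axis) for each gene list with at least 5 tested genes, with both LKO-NC libraries (red circles) and with LKO-NC replicate 2 alone (black squares). Neutrophil markers show the widest gap between the fits, at 3.56 and -0.38, while extracellular matrix genes stay at 0.85 and 0.76 and male-biased liver genes lie lowest with both libraries.

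The same genotypes on NIAAA feeding gave separate libraries in which the control-fed genes could be examined again. The edgeR test of LKO-ALD against FLOX-ALD called 0 of 19014 genes (0%), with 1531 (8.05%) at an unadjusted p under 0.05, and DESeq2 called 127 of 17857 (0.711%) and limma voom 0. Lpcat3 had 10.8, 15.4 and 9.80 CPM in LKO-ALD, against 37.9, 43.2 and 30.5 CPM in FLOX-ALD, a log2 fold change of -1.63 on NIAAA feeding beside -1.55 on control feeding. Of the 266 genes with an unadjusted p under 0.01 on control feeding, 139 (52.3%) had the same sign on NIAAA feeding, against 44.4% of all genes, and 22 had an unadjusted p under 0.05 with the same sign and 19 with the opposite sign. Genes of the same and of the opposite sign were thus close in number, and without FLOX-ALD replicate 1, a library with Xist and without Y-linked transcripts, the share of the same sign was 50.4% of the 266. Apoa4 had the same direction in both feedings, with 1631.5, 2379 and 757 CPM in LKO-ALD, against 739.6, 479 and 295 CPM in FLOX-ALD (unadjusted p 0.00269). The non-coding Gm33699, named after its values were seen, had 6.43 and 2.94 CPM in LKO-NC, against 0.147, 0.3098 and 0.465 CPM in FLOX-NC, and 3.07, 1.73 and 2.72 CPM in LKO-ALD, against 0.583, 0.152 and 0.103 CPM in FLOX-ALD. In both feedings its knockout libraries lay above all floxed libraries.

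The calls themselves were not repeated on NIAAA feeding. Fgf2 had 3.70, 4.14 and 4.45 CPM in LKO-ALD, against 2.73, 3.61 and 6.59 CPM in FLOX-ALD, so that the LKO-NC libraries stood alone at a low level. The interaction of genotype and feeding was 5.90 for Fgf2 (SE 0.707, edgeR adjusted p 0.0351), the only gene called of 19014 (0.00526%), with 1781 (9.37%) at an unadjusted p under 0.05. Jade1 had 36.1, 42.8 and 28.3 CPM in LKO-ALD, against 34.2, 37.0 and 47.0 CPM in FLOX-ALD, so that the FLOX-NC libraries stood alone at a low level. Extracellular matrix genes had a median of 0.24 and male-biased genes of 0.45 on NIAAA feeding, and 0.14 and -0.12 without FLOX-ALD replicate 1. The control-fed medians of 0.85 and -1.23 had no counterpart of that size on NIAAA feeding, and the difference between the list medians was not tested.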

How the data were processed

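Liver RNA-seq reads were handled with FastQC, cutadapt, HISAT2, StringTie and edgeR on mm10, per the submitters' processing notes, which give no versions, annotation or strand setting. The authors deposited estimated counts per gene and per transcript, as whole numbers, and FPKM values per gene and per transcript. A gene's estimated count is the sum over its annotated transcripts, so it moves when reads pass from a short to a long transcript. Estimated counts were used as deposited. Group names follow the labels, and each column was matched to the sample whose title it carries.

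Genes kept by edgeR's filterByExpr (a count of at least 10, in total at least 15) numbered 19014 of 55401. The edgeR 4.0.16 quasi-likelihood test with TMM scaling and Benjamini-Hochberg adjustment was fitted to 4 groups and 11 libraries, which left 7 residual degrees of freedom. FLOX-ALD replicate 1, which has Xist and no Y-linked transcripts, stayed in that fit and was left out in an alternative. The standard error of a fold change was taken from its F statistic. DESeq2 1.42.0, limma 3.58.1 with voom, limma on log2(FPKM + 1) and log2(FPKM + 0.1), and R 4.3.3 were used for alternatives. The design had been written for plain counts, and the same test was kept for estimated counts. Fits were tested on simulated data. No pair of libraries differed by less than sampling noise.

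The 58 gene lists and the comparison itself were chosen with earlier results of these data known. Named genes were Lpcat3 and Nampt, up to 15 genes in each direction by size of change among genes whose groups did not overlap (filled up, beyond edgeR's calls, with unadjusted p under 0.01 and DESeq2 adjusted p under 0.05), up to 4 genes per list with an unadjusted p under 0.05 or else the most abundant members, and genes called without LKO-NC replicate 1. The following were chosen after their values were seen: Abca1, Acadm, Camp, Cd63, Chka, Clec4f, Col18a1, Cpt1a, Cxcl1, Cyp7b1, Dbp, Elovl5, Fads1, Fasn, Fn1, G6pc, Gm10680, Gm33699, Hsd3b5, Icam1, Larp4, Lcn2, Lrat, Mboat7, Mmp14, Mttp, Nnt, Nudt6, Pck1, Saa2 and Srebf1.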

Additional observations from a re-analysis of the deposited data

Results flagged for a closer look

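Fgf2 was the only gene whose genotype difference itself differed between the feedings in the edgeR interaction test (5.90 on the log2 scale, SE 0.707, adjusted p 0.0351). Both LKO-NC libraries, at 0.152 and 0.0417 CPM, lay below all 3 FLOX-NC libraries, at 4.67 to 7.89 CPM, whereas LKO-ALD libraries, at 3.70 to 4.45 CPM, lay within the range of the FLOX-ALD libraries, at 2.73 to 6.59 CPM. The interaction rests on 7 and 2 counts in LKO-NC and on the transcript that received the counts in FLOX-NC, and its adjusted p missed 0.05 when any 1 FLOX-NC library was left out.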

How the results depend on the processing

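Against 2 genes called on control feeding, edgeR called 2 with RLE size factors, with mitochondrial genes removed and without FLOX-ALD replicate 1, 7 without the filter on low counts and 5 on the control-fed libraries alone. Leaving out 1 library gave 1 to 21 calls, with 5 without LKO-NC replicate 1, 21 without LKO-NC replicate 2 and 1 without each FLOX-NC library in turn. DESeq2 called 60, and limma called 0 with voom (1252 at an unadjusted p under 0.05), 0 on log2(FPKM + 1) (1503) and 0 on log2(FPKM + 0.1) (1393). Fgf2 had an adjusted p of 0.432 with voom, and Jade1 0.0891. Chosen after seeing the data, genes with 1 leading transcript in all 5 libraries gave 0 calls, and the repeat without LKO-NC replicate 1 gave 60 on control-fed libraries alone and 26 with DESeq2, against 5. The interaction had 1 call with edgeR, 79 with DESeq2, 0 with voom and on FPKM, 5 without the filter, 3 without FLOX-ALD replicate 1 and 0 to 6 with 1 library left out. The cause of these differences was not tested.

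Of the values of 154 named genes under the alternatives, 2085 kept their direction and side of the threshold, 44 passed it, 11 missed it and 14 turned round, none of them called. With 1 library left out the log2 fold change ran from -0.16 to 2.32 for Csf3r, -0.62 to 0.0798 for Alb, -0.58 to 0.13 for Rps2, -0.34 to 0.26 for Rpl7a, -0.70 to 1.15 for Il7r and -0.59 to 0.70 for Cd4, each turned round without LKO-NC replicate 1. It ran from -0.21 to 0.45 for Ighm (-0.15 without LKO-NC replicate 2) and -0.10 to 0.26 for Uqcrq. Rpl7a was also at 0.00257 on control-fed libraries alone and 0.015 on both FPKM scales. Of the list medians, 112 moved and 699 did not.

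No paired analysis was possible because the titles of the LKO-NC and FLOX-NC samples share no replicate number.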
